A study of Mus musculus with 6 samples.

Results

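The transcripts described here are 10 genes of the unfolded protein response and of protein folding in the endoplasmic reticulum (ER), measured in osteocytes, the cells embedded in bone matrix, of mice labelled as controls or as lacking estrogen receptor alpha (ERα) in osteocytes. All probe sets that the platform annotation assigns to exactly 1 of these genes were taken, which gave 25 of the 45101 probe sets on the array. The genes were Calr, Canx, Hspa5, Hsp90b1, Pdia4, Xbp1, Atf4, Ddit3, Herpud1 and Dnajb9. Of the 25 probe sets, 23 passed a filter that left out the dimmest 40% of probe sets, and all 10 genes were among the 10916 genes tested. The control group held 3 arrays from mice labelled as wild-type littermates, while the extraction protocol names them ERα flox/flox. The knockout group held 3 arrays from mice labelled as osteocyte-specific ERα knockouts, written ERαΔOcy/ΔOcy in the protocol. Both genotypes also carried the Dmp1-GFP transgene, a marker of late osteoblasts and osteocytes, and GFP-positive cells were sorted from digested calvariae, the bones of the skull vault. All mice are labelled as female C57/BL6 aged 10 to 12 days, while the protocol writes of 10-day-old fetal mice. The promoter that drove Cre, and whether controls carried Cre, are not stated in the labels, so ERα loss and Cre cannot be told apart. The labels disagree on pooling, since the design text denies it for RNA and the protocol mentions it for calvarial tissue, so the p-values measure the spread between arrays, which may be technical.

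The ER folds secreted and membrane proteins, and bone cells that export collagen place a large load on it. When unfolded protein builds up, the sensors IRE1, PERK and ATF6 are released from the chaperone BiP. IRE1 splices the mRNA of Xbp1 into the form that encodes an active transcription factor, PERK slows translation while allowing that of ATF4, and ATF6 is cut to a transcription factor in the Golgi. Their targets are chaperones, the machinery that returns misfolded proteins to the cytosol for degradation, and, under lasting stress, the transcription factor CHOP, encoded by Ddit3. The arrays measured mRNA, so they carry no reading of Xbp1 splicing, of ATF4 translation or of ATF6 cleavage.

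The letters of a DNA element of the ER stress response were found before 4 of the genes. The genes were chosen for their known place in the unfolded protein response, so this is not an independent trait of them. ATF6, with the CCAAT-binding factor NF-Y, binds the ER stress response element (ERSE), whose letters are CCAAT and CCACG with 9 bases between them. In the 250 bases before the RefSeq gene start (GRCm38.p6), searched on both strands, these letters were found for 35 of 27025 genes (0.13%) and in 0.113% of 32851 windows. They were found for 4 of the 10 genes, Hspa5, Calr, Canx and Hsp90b1, and in 2 places in the Hsp90b1 window. The related ERSE-II, ATTGG and CCACG with 1 base between them, was found for Herpud1 and for 0.037% of all genes. These 5 windows are printed because they hold ERSE or ERSE-II, with the fixed letters in capitals. In the Herpud1 window the further capitals mark the reverse complement of TGATGNAA.
Hspa5 (chr2:34771840-34772089, plus strand): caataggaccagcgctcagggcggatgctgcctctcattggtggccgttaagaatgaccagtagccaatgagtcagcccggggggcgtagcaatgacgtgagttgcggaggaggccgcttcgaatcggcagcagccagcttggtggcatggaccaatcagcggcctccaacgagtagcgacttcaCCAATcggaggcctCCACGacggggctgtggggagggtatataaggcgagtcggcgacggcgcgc
Calr (chr8:84846932-84847181, minus strand): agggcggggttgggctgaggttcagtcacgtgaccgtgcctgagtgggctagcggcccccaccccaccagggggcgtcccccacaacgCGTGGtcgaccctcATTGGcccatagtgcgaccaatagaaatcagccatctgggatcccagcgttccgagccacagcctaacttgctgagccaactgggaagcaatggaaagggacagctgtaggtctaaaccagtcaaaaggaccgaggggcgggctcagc
Canx (chr11:50325674-50325923, minus strand): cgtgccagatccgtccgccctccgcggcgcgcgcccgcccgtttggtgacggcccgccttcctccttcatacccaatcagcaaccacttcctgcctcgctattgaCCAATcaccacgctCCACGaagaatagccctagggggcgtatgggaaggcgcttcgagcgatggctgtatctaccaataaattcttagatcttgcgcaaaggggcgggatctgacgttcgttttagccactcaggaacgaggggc
Hsp90b1 (chr10:86705445-86705694, minus strand): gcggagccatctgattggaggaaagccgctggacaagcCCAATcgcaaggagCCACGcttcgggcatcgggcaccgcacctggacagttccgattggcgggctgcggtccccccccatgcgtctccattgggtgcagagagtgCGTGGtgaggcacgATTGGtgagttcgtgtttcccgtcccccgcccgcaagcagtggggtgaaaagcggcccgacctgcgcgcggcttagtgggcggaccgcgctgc
Herpud1 (chr8:94386179-94386428, plus strand): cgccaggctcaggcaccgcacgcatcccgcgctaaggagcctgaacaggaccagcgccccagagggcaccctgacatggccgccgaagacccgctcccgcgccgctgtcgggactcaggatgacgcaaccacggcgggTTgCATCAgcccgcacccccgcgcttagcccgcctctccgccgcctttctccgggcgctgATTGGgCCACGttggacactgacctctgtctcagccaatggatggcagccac
In the Hspa5 window the element ended 47 bases before the gene start, and in that of Herpud1 42 bases before it. The elements of Calr, on the reverse strand, and of Canx lay 144 to 162 and 127 to 145 bases before the start. TGATGNAA, a form of the site bound by ATF4 with its partners, was found for Herpud1 and for 3.91% of all genes. TGACGTGG, the core of the element bound by XBP1, was found for 0 of the 10 genes and for 0.603% of all genes. The windows of Pdia4, Xbp1, Atf4, Ddit3 and Dnajb9 held none of the 4 motifs, which says only that these letters were not in these 250 bases. The median GC content of the members' windows was 63.6%, against 52.4% over all windows. The shares over all genes were not matched for GC content. A match of letters is a description and not a measured site.

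Before the members, the arrays themselves differed. Summed over 12 skeletal muscle markers, the normalised signal was 213 in control replicate 2 and lay between 4741 and 38011 on the other arrays. Chondrocyte markers were higher in knockout for 11 of 12, with sums of 3053 to 4351 in control and 4616 to 8414 in knockout arrays. Macrophage and osteoclast markers had a sum of 5622 in control replicate 1 and of 9176 to 12801 elsewhere. No measured marker of any of these lists was at 0 on all arrays. In bulk RNA, fewer cells of a type and less RNA per cell cannot be told apart. All 10 osteocyte markers listed were tested, among them Dmp1 at log2 levels of 12.41 to 12.97 and Phex at 10.89 to 11.03. Mepe and Sost were dim, with deposited signals of 14.3 to 60.7 and 54.4 to 147.3. Of these 10, 7 had a difference below 0. Dkk1 (-0.70) and Ptprz1 (-0.21) had separate groups with knockout lower, against 7.76% of all genes. The other 3 of the 10, Mepe (0.45), Sost (0.21) and Cd44 (0.16), were above 0 with overlapping groups. Osteocyte marker sums were 13371 to 15969 in control and 12420 to 13319 in knockout arrays, apart by a small margin. Their log2 levels, centred per gene and averaged, overlapped, at 0.08, -0.25 and 0.31 in control against -0.06, 0.02 and -0.10 in knockout arrays. The part of these markers in the values of the 10 genes was not tested. Pericyte and smooth muscle markers were below 0 for 8 of 9, with 3 separate and lower, against 7.76% of all genes. Their sums did not overlap, at 16309 to 25347 in control and 14756 to 15931 in knockout arrays. Their mean centred levels did, control replicate 2 lying at -0.26 and the knockout arrays at -0.13, -0.19 and -0.29. Of 6 measured plasma cell markers, a cell type with high Xbp1 activity, 5 were under the level filter. Esr1, which encodes ERα, had log2 levels of 6.97, 6.89 and 6.80 on the control arrays against 6.63, 6.60 and 6.82 with the knockout for its brightest probe set. The groups overlapped there, and the labels do not name the deleted part of the gene, so this does not check the labels. Sets of 3 values follow the order of replicates 1, 2 and 3. Levels are log2(signal + 16) after quantile normalisation, so fold changes are on that scale and understate those of dim probe sets.

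No member rose or fell past the threshold. By limma with Benjamini-Hochberg adjustment over all genes, 0 of the 10 members had an adjusted p under 0.05, and 0% of all genes did. At an unadjusted p under 0.05, Calr and Ddit3 were higher in knockout and no member was lower, where 5.85% of all genes were higher and 4.69% lower. In 4 of the 10, Calr, Hspa5, Atf4 and Ddit3, every knockout array lay above every control array, which held for 9.23% of all genes. In 0 members did every knockout array lie below, against 7.76% of all genes. The log2 difference of knockout minus control was above 0 for 7 of 10 members, with a median of 0.12, and above 0 for 48.3% of all genes, with a median of -0.01. With the deposited scaling it was above 0 for 10 of 10, with a median of 0.31, where the median of all genes was 0.14. Without control replicate 2 it was also above 0 for 10 of 10, with a median of 0.14, and Ddit3 passed the threshold. In that fit the median of all genes was -0.01, and of 10916 genes 86 passed as higher and 212 as lower.

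**Figure D1:**
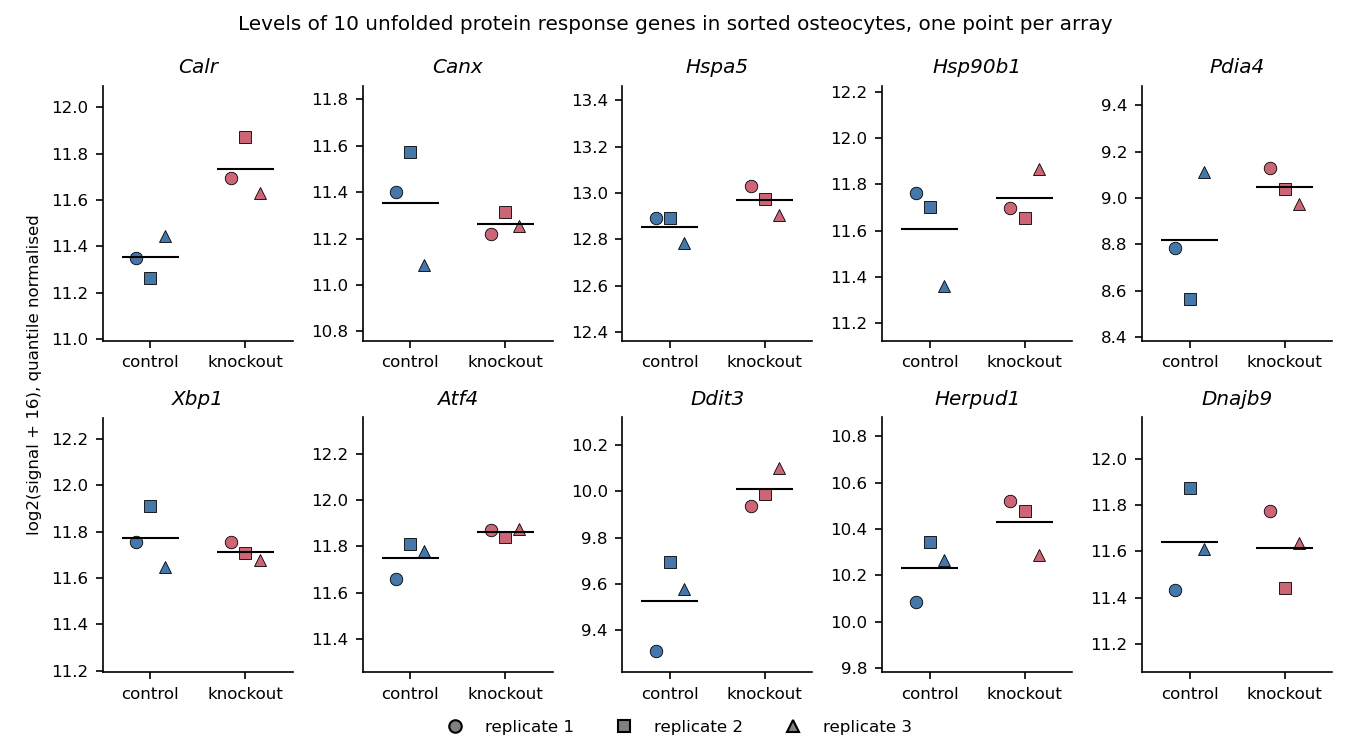
Levels of the brightest probe set of each of the 10 genes as log2(signal + 16) after quantile normalisation, with 1 point per array, its shape showing the replicate number, and a line at the mean of 3 arrays. Each panel spans the same range of log2 units. The knockout arrays of Calr, Hspa5, Atf4 and Ddit3 all lie above the control arrays, and in each of the 10 panels the lowest array is a control.

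Calr and Canx encode calreticulin and calnexin, the soluble and the membrane-bound lectin chaperone that hold newly made glycoproteins until they are folded. The brightest Calr probe set had deposited signals of 2688, 2304 and 2383 on the control arrays against 3258, 3604 and 3917 with the knockout. The highest control array lay below the lowest knockout array. On the log2 scale its level was 11.35 ± 0.09 over the controls against 11.73 ± 0.13 over the knockouts (mean ± SD, n = 3 per group), a difference of 0.38 ± 0.09 (SE, limma adjusted p = 0.288), or 1.30-fold. The 95% confidence interval ran from 0.17 to 0.59. Calr ranked 135 of 10916 genes by p. Its other 2 probe sets differed by 0.30 ± 0.12 and 0.25 ± 0.08 (SE), and in each of them all 3 knockout arrays lay above all 3 control arrays, as they did in the deposited signal. Both carry the suffix _x_at, which marks probes that may also bind other transcripts. With 1 array left out the Calr difference ran from 0.31 to 0.43, its smallest adjusted p being 0.131, and with the replicate block it was 0.38 with an adjusted p of 0.611. Chondrocyte marker sums, given above, were separate in the same direction, as were 10 of the 12 markers, against 9.23% of all genes. The part of these markers in the Calr difference was not tested.

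Canx showed no such pattern. Its brightest probe set had log2 levels of 11.40, 11.57 and 11.09 on the control arrays against 11.22, 11.31 and 11.25 with the knockout. The knockout arrays lay within the range of the controls. The difference was -0.09 ± 0.12 (SE, limma adjusted p = 0.833), with a confidence interval from -0.38 to 0.20, and it was above 0 with the deposited scaling (0.07) and without control replicate 2 (0.02). The other 2 probe sets differed by -0.18 ± 0.15 and 0.08 ± 0.15 (SE). Taken within each array, the difference between the genotypes was 0.47 larger for Calr than for Canx. An exact permutation test of 3 arrays against 3 gave a 2-sided p of 0.1, the smallest that this design allows, and 0.1 after adjustment over the 3 pairs compared. The pairs were chosen after the values were seen, so the p-value is no support. Centred over the arrays, Calr minus Canx was 0.12 in control replicate 3 and 0.14 in knockout replicate 3, a small margin.

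Hspa5 encodes BiP, the main chaperone of the ER lumen and the protein that holds the stress sensors inactive. Its brightest probe set had deposited signals of 7597, 7087 and 6125 on the control arrays against 8707, 8193 and 8946 with the knockout. All knockout arrays lay above all controls, by a small margin after normalisation. The log2 level was 12.85 ± 0.06 over the controls against 12.97 ± 0.06 over the knockouts (mean ± SD, n = 3 per group), a difference of 0.11 ± 0.07 (SE, limma adjusted p = 0.583), or 1.08-fold. With the deposited scaling the difference was 0.32. A second probe set overlapped between the groups at 0.06 ± 0.10, and the dimmest, also an _x_at probe set, differed by 0.35 ± 0.13 (SE) with separate groups after normalisation but not in the deposited signal.

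Hsp90b1 encodes GRP94, the HSP90 chaperone of the ER. Its brightest probe set had log2 levels of 11.76, 11.70 and 11.36 on the control arrays against 11.70, 11.65 and 11.87 with the knockout. The groups overlapped, with control replicate 3 lowest. Knockout minus control gave 0.13 ± 0.12 (SE, limma adjusted p = 0.734), and without control replicate 3 it was 0.01. The second probe set pointed the other way, at -0.36 ± 0.25 (SE), and its 95% interval from -0.94 to 0.22 was the widest among the members. The mean of the 2 probe sets differed by -0.11.

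Pdia4, a protein disulfide isomerase that forms and rearranges disulfide bonds, had log2 levels of 8.78, 8.56 and 9.11 on the control arrays against 9.13, 9.04 and 8.97 with the knockout. Control replicate 3 lay among the knockout arrays, though not in the deposited signal, where the groups were separate. The difference was 0.23 ± 0.14 (SE, limma adjusted p = 0.607), 0.10 without control replicate 2 and 0.38 without control replicate 3. A second probe set of Pdia4 had deposited signals of 5.3 to 11.4 and was not tested. Dnajb9, a J-domain cochaperone that directs BiP to clients and to IRE1, had 1 probe set with log2 levels of 11.43, 11.87 and 11.61 on the control arrays against 11.77, 11.44 and 11.64 with the knockout. Both groups covered nearly the same range. The difference was -0.02 ± 0.13 (SE, limma adjusted p = 0.967, 95% interval from -0.33 to 0.29), and it lay above 0 with the deposited scaling (0.16).

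**Figure D2:**
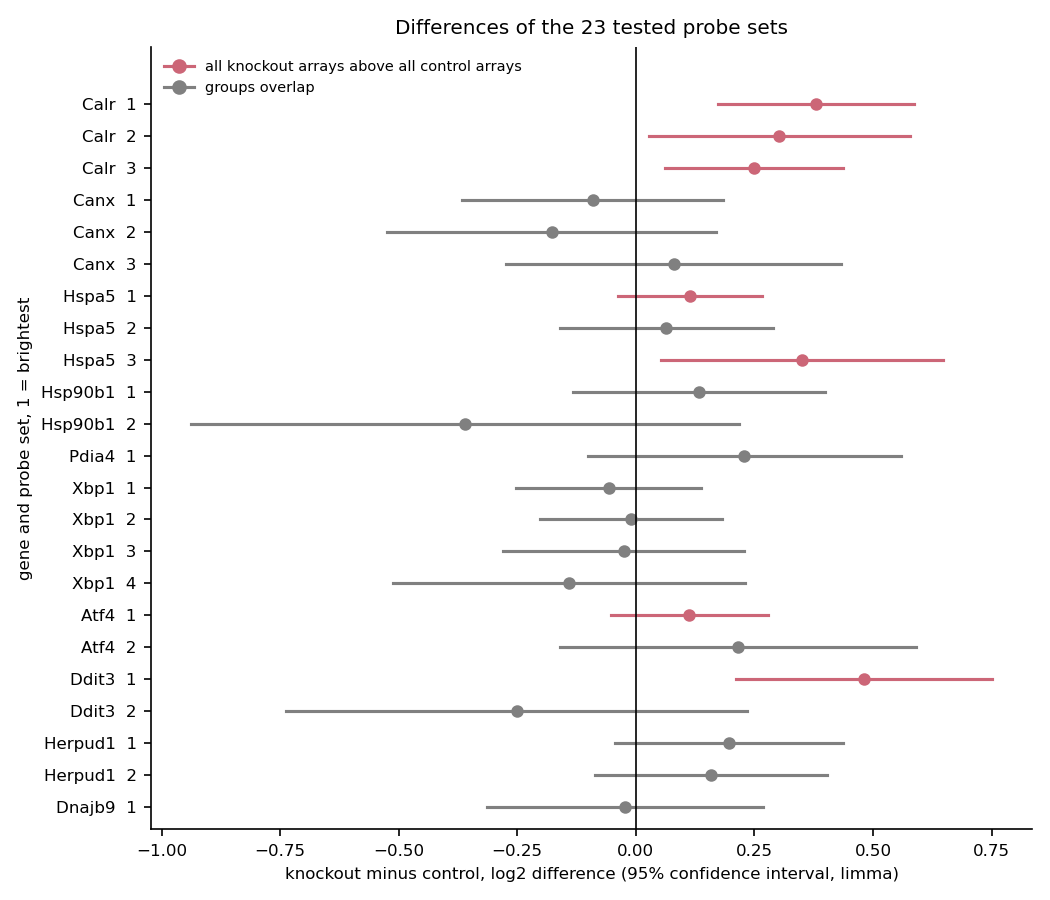
Log2 difference of knockout minus control for the 23 tested probe sets, as points with 95% confidence intervals from limma, with probe set 1 the brightest of its gene. Red marks the 7 probe sets in which every knockout array lay above every control array, which include all 3 of Calr, and grey marks overlapping groups.

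Of the transcription factors of the response, Xbp1 encodes the factor made active by IRE1. Its 4 probe sets differed by -0.06 ± 0.09, -0.01 ± 0.08, -0.03 ± 0.11 and -0.14 ± 0.16 (SE), and the groups overlapped in each of them. The brightest had log2 levels of 11.75, 11.91 and 11.65 on the control arrays against 11.76, 11.71 and 11.68 with the knockout (limma adjusted p = 0.851). Its confidence interval from -0.26 to 0.14 was among the narrower ones. Spliced and unspliced Xbp1 mRNA were not told apart here. The difference of the brightest probe set turned to 0.11 with the deposited scaling, to 0.01 with aligned array medians and to 0.01 without control replicate 2.

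Atf4 encodes the factor translated under PERK activity. The brightest probe set had log2 levels of 11.66, 11.81 and 11.78 on the control arrays against 11.87, 11.84 and 11.88 with the knockout. All 3 knockout arrays lay above all controls, control replicate 2 being closest to them. The difference was 0.11 ± 0.07 (SE, limma adjusted p = 0.607), or 1.08-fold. A second probe set had overlapping groups and differed by 0.21 ± 0.16 (SE), and the dimmest, with deposited signals of 0.8 to 9.2, was not tested.

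Ddit3 had the largest difference of the 10 genes by the brightest probe set, but Calr had it with the mean of probe sets (0.31 against 0.11) and without control replicate 1 (0.38 against 0.37). Its brightest probe set had deposited signals of 644, 758 and 647 on the control arrays against 936, 955 and 1356 with the knockout. The groups were separate, in the deposited signal and after normalisation. The log2 level was 9.53 ± 0.20 over the controls against 10.01 ± 0.08 over the knockouts (mean ± SD, n = 3 per group), a difference of 0.48 ± 0.12 (SE, limma adjusted p = 0.291), or 1.40-fold, with a 95% interval from 0.21 to 0.75. With 1 array left out it ran from 0.37 without control replicate 1 to 0.57 without control replicate 2, where the adjusted p was 0.0490. In that last fit 298 genes passed the threshold. In the other 5 such fits the smallest adjusted p was 0.253, and with the replicate block it was 0.574. The second probe set was dim, with deposited signals of 20.7 to 42.8, overlapped between the groups and differed by -0.25 ± 0.21 (SE). The mean of both probe sets differed by 0.11 (limma adjusted p = 0.810), less than the probe set means of Atf4 (0.16) and Hspa5 (0.18). By the brightest probe sets only, the genotype difference of Ddit3, taken within each array, was 0.37 larger than that of Atf4. It was also 0.37 larger than that of Hspa5. The exact permutation test gave a 2-sided p of 0.1 for each, the smallest possible, and 0.1 after adjustment over the 3 pairs compared. These pairs were chosen after the values were seen, Ddit3 having the largest difference, so the p-values are no support. Chondrocyte marker sums were separate in the same direction. Among 9 genes that respond quickly to tissue digestion, Junb, Ier3 and Egr1 were separate and higher, against 9.23% of all genes. Jun and Dusp1 were separate and lower, against 7.76%. The part of the chondrocyte and digestion genes in the Ddit3 difference was not tested.

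Over the 6 arrays Ddit3 spanned 0.79 on the log2 scale, the widest range among the members. The 5 tested genes outside the members whose centred levels lay closest to it were Fancc, Fmnl2, Ebpl, Camkk2 and Snhg6. Their root mean square differences were 0.06, 0.07, 0.07, 0.08 and 0.08 over 6 arrays. Between genotypes their limma adjusted p ran from 0.223 to 0.413, and Fancc was dim, at log2 levels of 5.88 to 6.61. They lie close by selection out of 10916 genes, and shared regulation with Ddit3 was not tested. Hspa5 spanned 0.25, under the 0.5 set for this comparison, so no such genes were named for it.

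Herpud1 encodes a membrane protein of the complex that passes misfolded proteins out of the ER. Its brightest probe set had log2 levels of 10.09, 10.35 and 10.27 on the control arrays against 10.52, 10.48 and 10.29 with the knockout. Knockout replicate 3 lay among the controls. Knockout minus control gave 0.20 ± 0.10 (SE, limma adjusted p = 0.557), and the second probe set had 0.16 ± 0.11 (SE). In the deposited signal both probe sets had separate groups, with 1065 to 1211 in control and 1361 to 1553 in knockout arrays for the brightest.

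Among the 8 genes with at least 2 tested probe sets, the probe sets pointed in 1 direction for 5, namely Calr, Hspa5, Xbp1, Atf4 and Herpud1, and disagreed for Canx, Hsp90b1 and Ddit3. Of the 23 probe sets, 14 had a difference above 0, against 49.8% of all probe sets tested. Groups were separate, with knockout higher, in 7 of the 23, against 9.41%, and separate with knockout lower in 0, against 7.27%. At an unadjusted p under 0.05, 5 were higher and 0 lower, against 6.25% and 4.31%, and 0 passed limma's adjusted threshold, against 0%. Probe sets of a gene share its RNA and are not replicates. The lowest of the 6 arrays was a control for 10 of 10 members, against 60.3% of all genes, and the highest was a knockout for 7, against 40.4%. It was not the same control throughout: replicate 1 was lowest for Atf4, Ddit3, Herpud1 and Dnajb9, replicate 2 for Calr and Pdia4, and replicate 3 for Canx, Hspa5, Hsp90b1 and Xbp1. Control arrays had the larger SD for 8 of 10 members and for 67.6% of all genes. The median SD was 0.17 in control and 0.08 in knockout arrays over the members, and 0.18 and 0.12 over all genes.

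**Figure D3:**
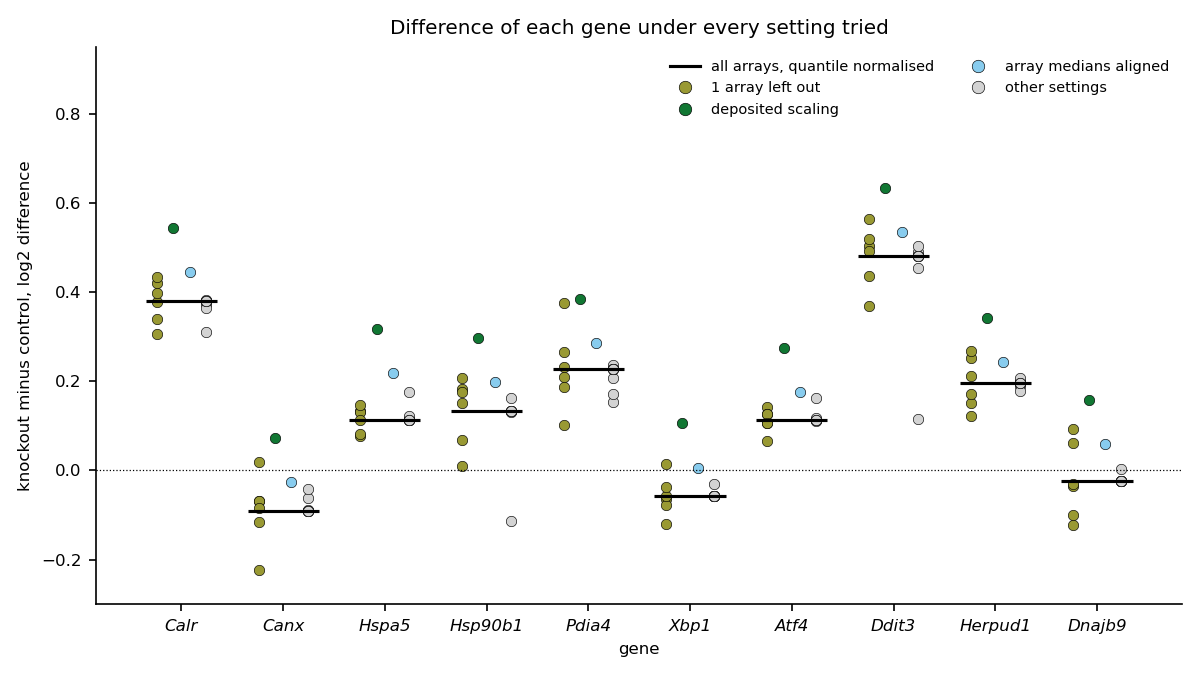
Log2 difference of knockout minus control for each gene, as a black line for all 6 arrays after quantile normalisation and as points for the alternatives. Calr, Hspa5, Pdia4, Atf4, Ddit3 and Herpud1 stay above 0 under each alternative shown, while Canx, Hsp90b1, Xbp1 and Dnajb9 have points on both sides of 0, and the deposited scaling lies highest for all 10.

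The wider pathway did not move as a block. In 5 lists of ER and ATF4 genes, which together hold 100 tested genes besides the members, 52 were higher and 48 lower, with a median of 0.02, and 0 passed limma's adjusted threshold. At an unadjusted p under 0.05, 6 of the 100 were higher and 5 lower, against 5.85% and 4.69% of all genes. Groups were separate for 11 higher and 9 lower, at shares near the 9.23% and 7.76% of all genes.

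ER folding genes besides the members had a difference above 0 in 14 and below 0 in 12 of 26 cases, the median being 0.05. Pdia6, a disulfide isomerase, had levels of 9.93, 9.98 and 10.02 on the control arrays against 10.18, 10.33 and 10.12 with the knockout. Its groups were separate, at a difference of 0.23 ± 0.09 (SE, limma adjusted p = 0.426). Serpinh1, the collagen chaperone HSP47, lay the other way with separate groups, at -0.20 ± 0.07 (SE, adjusted p = 0.407), and at -0.01 with the deposited scaling. Sdf2l1, a partner of BiP, and Hyou1, the large HSP70-like exchange factor of BiP, differed by 0.17 ± 0.11 and 0.35 ± 0.23 (SE). Without control replicate 1 the Hyou1 difference was 0.07. Dnajc3 and Manf differed by 0.14 ± 0.12 and 0.14 ± 0.10, and the disulfide isomerases Pdia3 and P4hb by -0.12 ± 0.09 and -0.03 ± 0.08 (SE).

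The 8 tested genes outside the members that also hold the ERSE letters were Adcy3, Alg12, Creld2, Dnajc3, Ero1b, Pan2, Pdia6 and Syvn1. They were higher for 6 and lower for 2, with a median of 0.12, where 48.3% of all genes were above 0. Creld2 and Pdia6 had separate groups with knockout higher, and Ero1b with knockout lower, against 9.23% and 7.76% of all genes. Of all 35 genes with these letters, 10 were in the ER lists, members included. The 4 members that hold the letters ran from -0.09 for Canx to 0.38 for Calr.

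Sensors and transducers other than Xbp1 were above 0 for 7 and below 0 for 2 of 9, and the 2 lower ones were the kinases. Groups were separate for 1 higher and 2 lower, against 9.23% and 7.76% of all genes. The higher one, named after its value was seen, was Mbtps1, at 0.20 ± 0.09 (SE, limma adjusted p = 0.475). Ern1, which encodes IRE1, had log2 levels of 7.29, 7.28 and 7.33 on the control arrays against 6.82, 6.98 and 7.17 with the knockout. The groups were separate, at a difference of -0.31 ± 0.12 (SE, limma adjusted p = 0.434), which was 0.04 with the mean of all its probe sets. Eif2ak3, which encodes PERK, also had separate groups, at -0.22 ± 0.09 (SE, adjusted p = 0.473), and -0.02 with the mean of its probe sets. Atf6 differed by 0.02 ± 0.15 and Creb3l1, an ATF6-like factor that drives collagen genes in osteoblasts, by 0.19 ± 0.10 (SE).

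Targets of PERK and ATF4 besides the members had a difference above 0 in 13 and below 0 in 11 of 24 cases, the median being 0.03. The stress-induced genes Atf3, Trib3, Chac1 and Ppp1r15a, which are often read beside Ddit3, differed by -0.13 ± 0.09, 0.11 ± 0.15, -0.11 ± 0.14 and -0.02 ± 0.16 (SE). Asns, asparagine synthetase, differed by 0.15 ± 0.18 (SE). In this list 4 of 24 genes had separate groups with knockout higher, against 9.23% of all genes, and they are named after their values were seen. Phgdh, of serine synthesis, differed by 0.37 ± 0.10, Cth, of cysteine synthesis, by 0.54 ± 0.15, the amino acid transporter Slc7a5 by 0.29 ± 0.10 and the seryl-tRNA synthetase gene Sars by 0.34 ± 0.11 (SE), with limma adjusted p of 0.329, 0.329, 0.410 and 0.402.

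Genes of ER-associated degradation besides Herpud1 had a difference above 0 in 7 and below 0 in 10 of 17 cases, the median being -0.04. Sel1l and Syvn1, the core of the ubiquitin ligase complex that Herpud1 joins, differed by 0.12 ± 0.10 and 0.10 ± 0.10, and Edem1, which selects misfolded glycoproteins, by -0.08 ± 0.11 (SE). Derl3 was under the level filter, with deposited signals of 5.6 to 18.1. Translocation genes had a difference above 0 in 11 and below 0 in 13 of 24 cases, the median being -0.04, and Sec61b and Ssr1, of the channel that new proteins pass, differed by 0.04 ± 0.11 and -0.05 ± 0.11 (SE).

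All 11 tested chaperones of the cytosol and mitochondria had a difference under 0, with a median of -0.15, where 48.3% of all genes were above 0. With the deposited scaling, however, 6 lay above 0 and 5 below, with a median of 0.00 against 0.14 for all genes. With aligned array medians, and also with the mean of probe sets, 2 lay above 0 and 9 below. By limma, 0 passed the adjusted threshold. At an unadjusted p under 0.05, 2 were lower, Hspd1 and Hspa1b (-0.17 ± 0.07, SE), where 4.69% of all genes were lower. Hspa8, the constitutive cytosolic HSP70, differed by -0.06 ± 0.06, the stress-induced Hspa1a, which has a near-identical copy, by -0.07 ± 0.08 and Dnajb1 by -0.08 ± 0.08 (SE). Hspd1 and Hspb1 differed by -0.43 ± 0.17 and -0.39 ± 0.22 (SE), the groups of each overlapping. Without control replicate 2 both passed as lower, among 212 genes that did so in that fit. The list's mean centred level was 0.22, -0.15 and 0.21 on the control arrays against -0.08, -0.16 and -0.03 with the knockout. Control replicate 2 was likewise the lowest control for the skeletal muscle markers, with sums of 37756, 213 and 38011 on the control arrays. The mean centred level of the pericyte and smooth muscle markers was 0.39, -0.26 and 0.49 on the control arrays against -0.13, -0.19 and -0.29 with the knockout. The part of either list in the heat shock values was not tested.

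**Figure D4:**
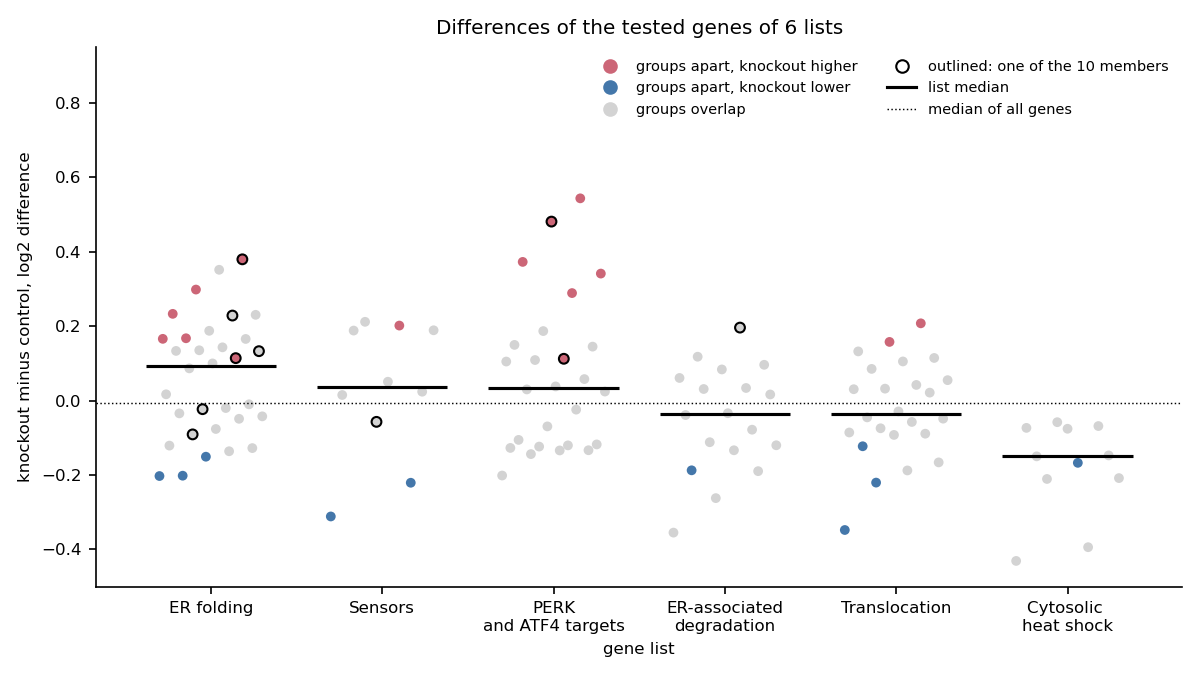
Log2 difference of knockout minus control for each tested gene of 6 lists, with a line at the list median and a dotted line at the median of all genes. Outlined points are members. Points lie on both sides of the dotted line in the 5 ER and ATF4 lists, and all 11 cytosolic and mitochondrial chaperones lie below it.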

How the data were processed

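Total RNA of sorted osteocytes was measured on 6 Affymetrix arrays, 3 per genotype. The authors deposited 1 linear signal intensity per probe set and array, and GCOS, with no version, is the tool named per the submitters' processing notes. How background, probe summary and scaling were set is not stated in the labels. Array medians of the deposited intensity were 18.7 to 28.6, with 38.6% to 46.9% of values under 16. Precision is limited by how few arrays there are.

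Of 45101 probe sets, 64 controls were left out. Log2(signal + 16) was quantile normalised. The annotation names 1 gene for 34945 probe sets, several for 932 and none for 9160. Of the first, 34741 were matched in the RefSeq table. The brightest probe set stood for its gene, and the lowest 40% of 18193 genes were left out. Limma 3.58.1 in R 4.3.3 (lmFit, eBayes with trend, 2-sided, Benjamini-Hochberg, threshold 0.05) compared knockout with control, over 10916 genes and separately over 27023 probe sets. Values for a gene's brightest probe set come from the fit over genes, and those for its other probe sets from the fit over probe sets.

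The members, gene lists, named genes and tests were chosen with earlier results of these data known. The text names all members, a fixed choice of pathway genes by role, any list gene past the threshold and the 5 genes closest to Ddit3. The steps were tested on simulated data. Motifs were searched in RefSeq promoter windows of GRCm38.p6. Amino acid sequences were not used here. Alternatives changed the scaling, pseudocount, filter, choice of probe set, array weights, variance trend and replicate block, or left out 1 array. The count of members with separate groups was tracked under them after the data were seen.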

Additional observations from a re-analysis of the deposited data

How the results depend on the processing

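No member passed the threshold under any alternative but 1: without control replicate 2, 1 member (Ddit3, 0.57, adjusted p = 0.0490) passed, so the count ran from 0 to 1 with 1 array left out. Genes past the threshold numbered 30 with the deposited scaling, 1 with aligned array medians and 0 to 298 with 1 array left out, and probe sets 70, 5 and 0 to 520. The 298 genes and 520 probe sets were those without control replicate 2, the fit in which Ddit3 passed. The members' median was 0.31 with the deposited scaling and 0.21 with aligned medians, where that of all genes was 0.14 and 0.04. Members with separate groups, knockout higher, numbered 2 with the mean of probe sets (8.8% of all genes), 6 with the deposited scaling (12.4%) and with aligned medians (12%), and 4 or 5 with 1 array left out (12.7% to 16.1%). Without control replicate 3, 1 member was separate and lower (14.3% of all genes). With the replicate block 0 genes, 0 probe sets and 0 members passed, the median was 0.12 and no call changed. Deviations of same-numbered arrays correlated at -0.38, 0.10 and -0.04 over genes, so the numbers were not taken as pairs.

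Differences that turned sign were all short of the threshold. With the deposited scaling these were Canx 0.074, Xbp1 0.11, Dnajb9 0.16, Pdia3 0.055, P4hb 0.13, Atf3 0.030, Chac1 0.033, Ppp1r15a 0.13, Edem1 0.063, Ssr1 0.11, Hspa1a 0.12, Hspa8 0.092 and Dnajb1 0.087. With aligned medians they were Xbp1 0.0062, Dnajb9 0.060, P4hb 0.033, Ppp1r15a 0.034, Ssr1 0.014 and Hspa1a 0.023. With the mean of probe sets they were Hsp90b1 -0.11, Dnajc3 -0.037 and Ern1 0.037, and with array weights Dnajb9 0.0027. With 1 array left out, Canx ran from -0.22 to 0.018, Xbp1 from -0.12 to 0.014, Dnajb9 from -0.12 to 0.093, P4hb from -0.10 to 0.0012, Atf6 from -0.11 to 0.11, Ppp1r15a from -0.18 to 0.077, Asns from -0.045 to 0.27, Sec61b from -0.058 to 0.12 and Ssr1 from -0.15 to 0.028. The cause was not tested. Pseudocounts of 1 and 64, no filter, a filter of 60% and no trend changed no sign or call of the members or of the pathway genes named by role.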
